A study of Rattus norvegicus with 29 samples.

Results

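The members described here are the miRNAs of the miR-122 locus and of miR-802 in rat plasma. They were taken by name: every entry of the count table whose name, without the rno- prefix, has the exact stem miR-122, miR-3591 or miR-802, whatever the arm. This gave 5 of the 754 miRNAs in the table: rno-miR-122-5p, rno-miR-122-3p, rno-miR-3591, rno-miR-802-5p and rno-miR-802-3p. All 5 had counts in each rat and were among the 751 miRNAs that passed the filter on low counts.

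The rats were adult male Sprague-Dawley rats from 3 study sites, the University of Eastern Finland (UEF), Monash University and the University of California, Los Angeles (UCLA). Injured rats had traumatic brain injury (TBI) from lateral fluid percussion under isoflurane, and were labelled TBIE where video-EEG in the later months showed epilepsy and TBIN where it did not. Sham-operated experimental controls had the same surgery and anaesthesia without the impact, so that every rat here had been operated; unoperated rats were not analysed here. Plasma was drawn from the tail vein into K2EDTA tubes 48 h after surgery. UEF gave 12 rats (4 sham, 4 TBIN, 4 TBIE), Monash gave 8 (3 sham, 3 TBIN, 2 TBIE) and UCLA gave 9 (3 sham, 3 TBIN, 3 TBIE), with 1 library per rat. The sites also differed in supplier of the rats, feed, fluids and analgesia (buprenorphine at UEF and Monash, flunixin at UCLA, where the chow was medicated), and these cannot be told apart from site. Each group is a few rats of 1 site, and p-values measure the spread between rats.

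As background, a miRNA is cut from a hairpin precursor, whose 5p or 3p arm is loaded onto an Argonaute protein and guides it to messenger RNAs. The seed, bases 2 to 8 of the mature miRNA, is the stretch that pairs most with targets. miR-122 is the dominant miRNA of hepatocytes, where it takes part in cholesterol and lipid metabolism, and it is known as a plasma marker of liver injury. miR-802 is expressed in liver, among other tissues, and is known from glucose metabolism in obese mice. miR-3591 is the miRNA read from the strand opposite to miR-122.

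Because of this last relation, the sequences of the locus are shown first, from 5′ to 3′ with the seed in capitals (RefSeq, GRCr8):
rno-miR-122-5p: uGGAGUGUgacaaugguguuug
rno-miR-122-3p: aACGCCAUcaucacacuaa
rno-miR-3591: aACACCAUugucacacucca
The 5p arm of miR-122 lies at chr18:61028831-61028852 on the plus strand and its 3p arm at chr18:61028867-61028885. miR-3591 lies at chr18:61028831-61028850 on the minus strand, and its 20 bases are the reverse complement of the first 20 bases of miR-122-5p. In the RefSeq annotation of GRCr8 both hairpins lie within LOC134482951, a transcribed pseudogene, and the nearest protein-coding genes on either side are Nedd4l and Alpk2. miR-3591 also resembles miR-122-3p: aligned at the 5′ end, 14 of the 19 positions of miR-122-3p hold the same base, and the others are G4A, C9U, A10G, A18C and A19C (base of miR-122-3p, position from the 5′ end, base of miR-3591). G4A falls in the seed, so the pair do not share it. Among 724 mature rat sequences of RefSeq, 0 others have the seed of miR-122-5p, of miR-122-3p or of miR-3591. RefSeq gave no mature miR-802, so its arms were not covered.

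The sources used here do not say whether counting took the strand into account. Without it, reads of miR-3591 could not be told apart from reads of miR-122-5p, and the values of miR-3591 below carry that limit.

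miR-802 comes from another locus, and its hairpin is shown as the source of both arms, at chr11:46112362-46112457 on the plus strand of GRCr8 within the non-coding RNA gene LOC134480977:
Mir802 hairpin: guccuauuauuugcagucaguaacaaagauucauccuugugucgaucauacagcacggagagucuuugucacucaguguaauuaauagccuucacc
The annotation thus places miR-802 on another chromosome than miR-122.

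Libraries held between 1162307 and 5223469 miRNA counts, with a median of 2713557. Levels are given as CPM, counts per 1000000 of a library total scaled by the TMM factor of edgeR, which lay between 0.333 and 1.76. The rat UEF sham 3 stood apart, with the highest total and the factor of 0.333, and with such a factor the CPM of an abundant miRNA can exceed the nominal scale. Many results that rest on it are also given without it, though not all. A measure of hemolysis, the log2 ratio of the red cell miRNA miR-451-5p to miR-23a-3p, lay higher in TBI than in sham rats at UEF and UCLA. It ran from -3.57 to -2.81 in UEF sham rats and from -3.05 to -0.87 in UEF TBI rats. At UCLA it ran from -3.32 to -2.55 in sham and from -2.38 to -1.06 in TBI rats, and at Monash from -3.37 to -1.33 and from -2.88 to -2.34. This ratio is relative and comes from sequencing counts. By its own qPCR difference of miR-23a and miR-451, the paper found no hemolysis in any sample sent for sequencing. It also reported that a few pooled samples slightly exceeded its absorbance limit.

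The 5 miRNAs spanned a wide range of abundance. On average over the 29 rats, miR-122-5p took 10.8% of all counts and ranked 3 of 754, behind the red cell miRNAs miR-16-5p (16.8%) and miR-486 (12.9%). miR-3591 took 0.187% (rank 53), miR-122-3p 0.0123% (rank 185), miR-802-5p 0.00554% (rank 296) and miR-802-3p 0.00397% (rank 364). The lowest count in any rat was 14649 for miR-122-5p, 356 for miR-3591, 39 for miR-122-3p, 61 for miR-802-5p and 30 for miR-802-3p, so relative counting error was smallest for miR-122-5p and largest for miR-122-3p and the arms of miR-802. Shares compare counts within a library, and capture in library preparation can differ between sequences.

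miR-122-5p varied more between rats than the other 4 members, with an SD of log2 CPM of 1.87 against 1.74 for miR-3591, 1.62 for miR-122-3p, 0.76 for miR-802-5p and 0.77 for miR-802-3p. Its share of all counts ranged from 0.634% (95% confidence interval 0.624 to 0.644, exact Clopper-Pearson, counting error only) in UCLA TBIN 2 to 55.1% (interval 55 to 55.1) in UEF sham 3, a range of 86.9-fold. In UEF sham rats it was the most abundant miRNA on average, and in UCLA TBI rats it ranked 14. Its raw counts differed 196-fold between the lowest and the highest rat.

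**Figure D1:**
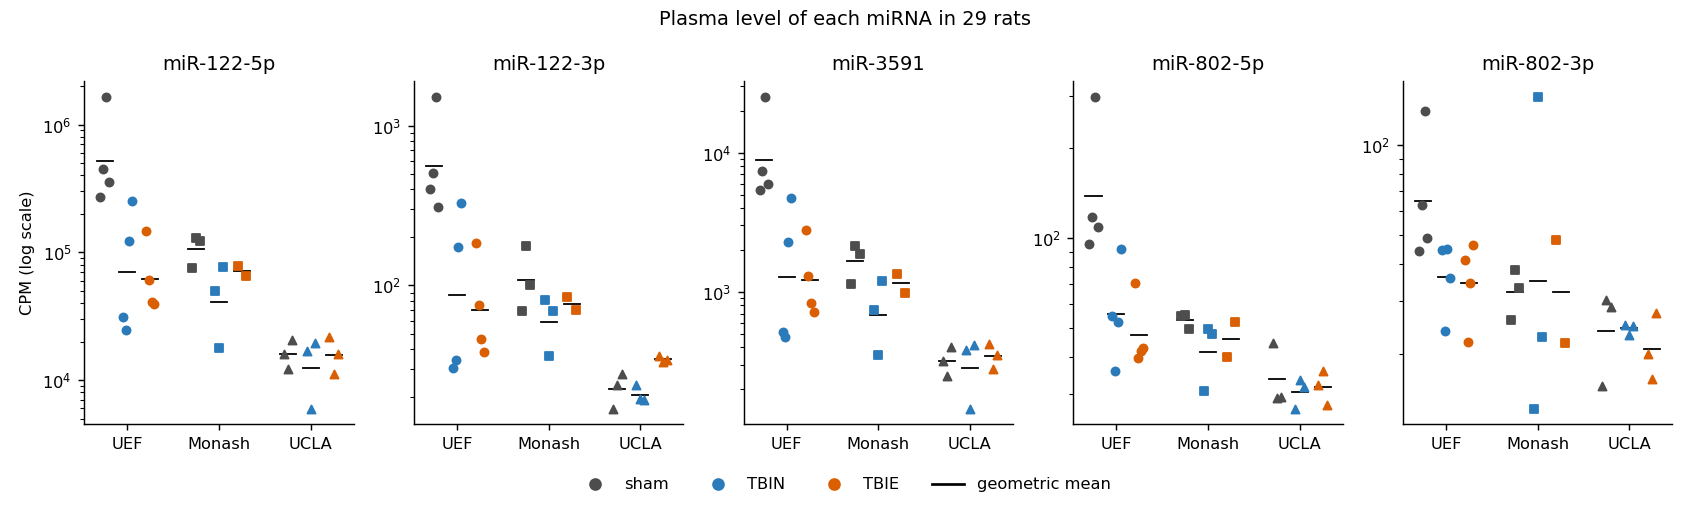
CPM of each of the 5 miRNAs on a log scale, each point 1 rat, grouped by site and coloured by condition, with the geometric mean of each group as a bar. UEF sham rats are highest for miR-122-5p (271788 to 1652549 CPM), UCLA rats lowest (5961 to 21614 CPM).

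At UEF, sham rats had 271788, 452410, 1652549 and 352053 CPM of miR-122-5p. The 8 UEF TBI rats had between 24542 and 251588 CPM, with a median of 50774. Every UEF TBI rat was therefore below every UEF sham rat.

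At Monash, sham rats had 75989, 128428 and 122297 CPM of miR-122-5p, and TBI rats had 49417, 17779, 76738, 78824 and 65420 CPM. The groups overlapped through the lowest sham rat. At UCLA, sham rats had 16024, 12319 and 20511 CPM and the 6 TBI rats between 5961 and 21614 CPM with a median of 16455, which encloses all the sham values.

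miR-3591 ran through the rats in much the same order as miR-122-5p. It was 5399, 7417, 25206 and 5975 CPM in UEF sham rats and between 472 and 4743 CPM in UEF TBI rats (median 1067), again without overlap. At Monash it was 1135, 2146 and 1867 CPM in sham rats and between 355 and 1352 CPM in TBI rats. At UCLA it was between 250 and 400 CPM in sham rats and between 145 and 423 CPM in TBI rats.

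miR-122-3p, the less abundant arm of the hairpin, was 404, 507, 1518 and 309 CPM in UEF sham rats. UEF TBI rats had between 30.4 and 328 CPM (median 60.7), so that 1 of them, UEF TBIN 4, lay above the lowest sham rat. Monash rats had between 69.5 and 177 CPM in sham and between 36.3 and 84.8 CPM in TBI. UCLA rats had between 16.9 and 28.1 CPM in sham and between 19.3 and 36.4 CPM in TBI.

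miR-802-5p moved over a narrower range. UEF sham rats had 95.6, 118, 298 and 109 CPM and UEF TBI rats between 35.9 and 92.0 CPM (median 47.3). These groups did not overlap, but the highest TBI rat (92.0) was close to the lowest sham rat (95.6). Monash sham rats had 54.6, 55.0 and 49.6 CPM, and Monash TBI rats had between 30.6 and 52.4 CPM. UCLA rats had between 29 and 44.5 CPM in sham and between 26.7 and 35.7 CPM in TBI.

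miR-802-3p had the lowest mean share of the 5. Its level was 44.2, 63.1, 130 and 48.9 CPM in UEF sham rats and between 21.9 and 46.1 CPM in UEF TBI rats. At Monash, 1 TBI rat, Monash TBIN 2, had 145 CPM from 470 counts while the other Monash TBI rats had between 13.1 and 47.9 CPM. At UCLA all 9 rats were between 15.6 and 30.4 CPM.

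The first comparison asked which plasma miRNAs differ between TBI and sham rats with the 3 sites in 1 model. It was run with edgeR's quasi-likelihood test with site and condition, and Benjamini-Hochberg adjustment over all 751 miRNAs. 2 of the 5 members passed the threshold of 0.05, both lower in TBI, against 0.533% of all miRNAs tested that were called lower. miR-122-5p was lower by 1.65 on the log2 scale (SE 0.42, adjusted p = 0.0379), which is 3.13-fold, the lowest of the 751 fold changes. miR-802-5p was lower by 0.80 (SE 0.21, adjusted p = 0.0486), 1.74-fold.

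The other members had log2 fold changes below 0 and did not pass. miR-3591 had -1.49 (SE 0.40, adjusted p = 0.0580), miR-122-3p had -1.37 (SE 0.40, adjusted p = 0.0800) and miR-802-3p had -0.32 (SE 0.28, adjusted p = 0.793). In plasma, fewer cells releasing a miRNA and less miRNA released per cell cannot be told apart, and the values are relative to the other miRNAs of the library. Plasma from before surgery was not analysed here, so a fall in TBI rats and a rise in sham rats cannot be told apart either.

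Both calls depended on UEF and on single rats. Without UEF the log2 fold change of miR-122-5p was -0.52 (edgeR adjusted p = 0.939) and that of miR-802-5p was -0.22 (adjusted p = 0.939). Without UEF sham 3 alone they were -1.11 (adjusted p = 0.177) and -0.51 (adjusted p = 0.190), and 0 of the 5 members passed. When each rat was left out in turn, miR-122-5p lost its call in 11 of 29 cases (-1.81 to -1.11) and miR-802-5p in 21 of 29 (-0.88 to -0.51), and without UEF TBIN 4 there were 4 members past the threshold. With the miR-451-5p to miR-23a-3p ratio as a covariate they were -1.33 (adjusted p = 0.403) and -0.61 (adjusted p = 0.527).

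Within UEF, 4 of the 5 members were lower in TBI than in sham rats, against 2.53% of all miRNAs called lower there. miR-122-5p was lower by 2.92 on the log2 scale (SE 0.51, edgeR adjusted p = 2.8e-04), or 7.58-fold. miR-3591 was lower by 2.69 (SE 0.49, adjusted p = 5.8e-04) and miR-122-3p by 2.59 (SE 0.48, adjusted p = 6.8e-04). The 3 products of the miR-122 locus thus held ranks 1, 3 and 4 from the lowest of 751 fold changes.

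miR-802-5p was lower by 1.53 in TBI rats at UEF (SE 0.26, edgeR adjusted p = 2.8e-04), or 2.88-fold. Its opposite arm, miR-802-3p, had -0.96 (95% interval -1.78 to -0.15, adjusted p = 0.204), and -0.45 (adjusted p = 0.922) when UEF sham 3 was left out. CPM of all TBI rats lay below CPM of all sham rats for 3 of the 5 members (miR-122-5p, miR-3591 and miR-802-5p), against 1.33% of all miRNAs.

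These 4 calls at UEF held without UEF sham 3, with smaller values. Without that rat miR-122-5p had -1.96 (edgeR adjusted p = 0.0349), miR-3591 had -1.84 (adjusted p = 0.0392), miR-122-3p had -1.81 (adjusted p = 0.0392) and miR-802-5p had -0.95 (adjusted p = 0.0392). They also held with the hemolysis ratio as a covariate, at -2.55 for miR-122-5p (adjusted p = 0.0249) and -1.39 for miR-802-5p (adjusted p = 0.0124).

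Scaling changed 1 of the 4 calls at UEF, that of miR-802-5p. miR-122-5p alone took 28.1% to 55.1% of the counts in UEF sham rats and 1.58% to 22.6% in UEF TBI rats. With library totals alone in place of TMM, the median log2 fold change of all miRNAs at UEF moved from 0.01 to 0.43, miR-122-5p had -2.11 (edgeR adjusted p = 0.00348) and miR-802-5p had -0.83 (adjusted p = 0.0817). With totals taken without miR-122-5p, the log2 fold changes were -2.88 for miR-122-5p and -1.49 for miR-802-5p. At UCLA, library totals alone moved the median of all miRNAs from 0.02 to -0.47.

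At the other sites no member passed. At Monash, where 0% of all miRNAs were called (0 of 751, with 56 at an unadjusted p under 0.05), miR-122-5p had a log2 fold change of -0.92 (95% interval -2.17 to 0.33), miR-3591 -0.89 (-2.11 to 0.33), miR-122-3p -0.77 (-1.98 to 0.45) and miR-802-5p -0.27 (-0.94 to 0.40). miR-802-3p had 0.63 (-0.40 to 1.66), with the rat of 145 CPM among the TBI rats.

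At UCLA, where 0.266% of all miRNAs were called, miR-122-5p had -0.10 (95% interval -1.33 to 1.13), miR-3591 0.04 (-1.17 to 1.25) and miR-122-3p 0.27 (-0.97 to 1.51). miR-802-5p had -0.14 (-0.79 to 0.51) and miR-802-3p -0.13 (-1.11 to 0.86). The interval of miR-122-5p at UCLA did not reach the value at UEF, -2.92.

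Whether the effect of TBI differed between sites was tested as an interaction. 0 of the 5 members passed in edgeR, against 1.07% of all miRNAs. With DESeq2, which called 17 of 751 miRNAs, 1 of 5 passed (miR-122-3p, adjusted p = 0.0366). The unadjusted p was 0.00302 for miR-802-5p, 0.00345 for miR-122-3p, 0.00408 for miR-122-5p, 0.00507 for miR-3591 and 0.0597 for miR-802-3p, and the adjusted p lay between 0.174 and 0.372. Without UEF TBIN 4 the 3 products of the miR-122 locus passed (adjusted p = 0.0439 for miR-122-5p and miR-3591, 0.0392 for miR-122-3p), and without UEF sham 3 the adjusted p of miR-122-5p was 0.481.

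**Figure D2:**
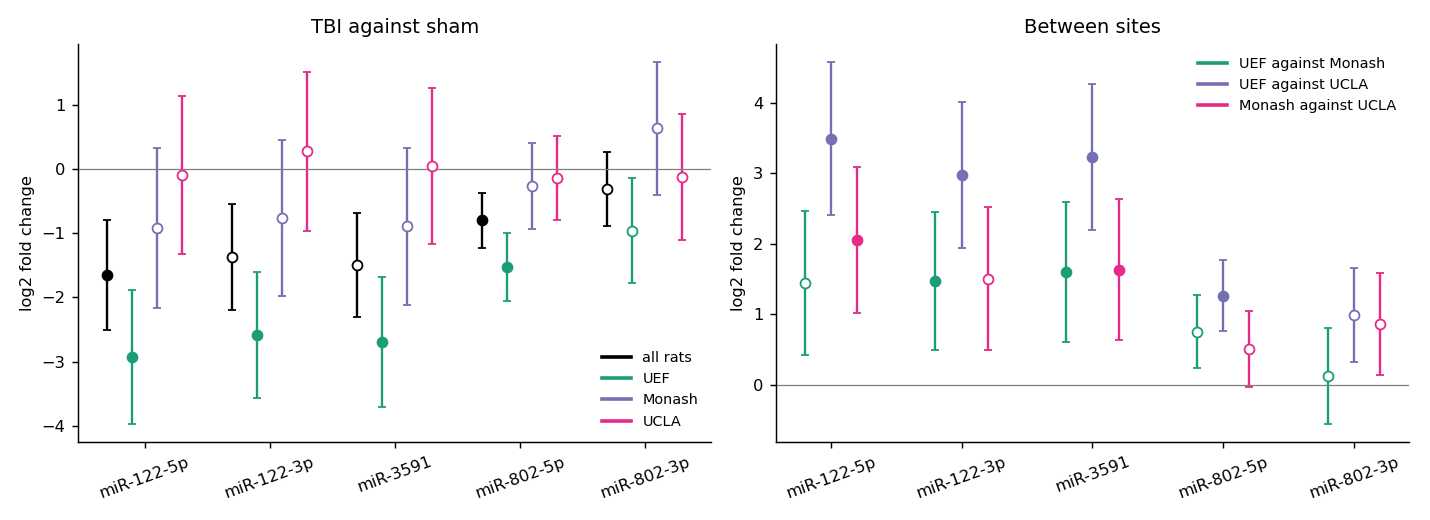
Log2 fold changes of the 5 miRNAs with 95% intervals, on the left for TBI against sham over all rats and at each site, on the right between sites; filled points passed an adjusted p of 0.05 in edgeR. At UEF 4 of 5 were lower in TBI than in sham rats, and UEF lay above UCLA for 4 of 5.

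The outcome groups were compared to ask whether plasma at 48 h differed by later epilepsy. No member passed between TBIE and TBIN, where 0% of all miRNAs were called (0 of 751 in edgeR, 18 at an unadjusted p under 0.05, and 0 with DESeq2). The log2 fold change of TBIE against TBIN was 0.08 for miR-122-5p (95% interval -0.88 to 1.03), 0.08 for miR-3591 (-0.85 to 1.00), 0.14 for miR-122-3p (-0.80 to 1.09), -0.06 for miR-802-5p (-0.57 to 0.44) and -0.36 for miR-802-3p (-1.04 to 0.33). These intervals are wide for the miR-122 locus, and a p that misses the threshold does not show that the groups were alike.

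Against the same sham rats, miR-122-5p had -1.69 in TBIN (SE 0.48, edgeR adjusted p = 0.187) and -1.61 in TBIE (SE 0.51, adjusted p = 0.225). miR-802-5p had -0.77 (SE 0.24, adjusted p = 0.222) and -0.83 (SE 0.25, adjusted p = 0.190). In edgeR 0 of the 5 members passed in either outcome group, against 0.133% of all miRNAs for TBIN and 0.533% for TBIE. With DESeq2, miR-122-5p and miR-3591 passed for TBIN, where 10 of 751 miRNAs were called, and miR-122-5p for TBIE, where 7 of 751 were.

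The sites were compared to ask whether their plasma samples are comparable. 4 of 5 members were higher at UEF than at UCLA, against 5.19% of all miRNAs called higher. miR-122-5p was higher by 3.49 on the log2 scale (SE 0.53, edgeR adjusted p = 2.3e-05), 11.2-fold. miR-3591 was higher by 3.23 (SE 0.51, adjusted p = 3.2e-05), miR-122-3p by 2.97 (SE 0.51, adjusted p = 9.1e-05) and miR-802-5p by 1.26 (SE 0.25, adjusted p = 6.0e-04).

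miR-802-3p had 0.99 between UEF and UCLA (SE 0.33, edgeR adjusted p = 0.0501). It passed in 8 of 29 fits with a rat left out, with an adjusted p from 0.00717 to 0.102, and with DESeq2 (adjusted p = 0.0239). CPM of all 12 UEF rats lay above CPM of all 9 UCLA rats for miR-122-5p and miR-3591, against 0.399% of all miRNAs, although the UEF rats include the injured ones. Without UEF sham 3 the difference of miR-122-5p was 3.16 (adjusted p = 3.1e-06).

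Monash lay between them. Against UCLA, 2 of 5 members were higher at Monash, against 3.06% of all miRNAs: miR-122-5p by 2.05 (SE 0.51, edgeR adjusted p = 0.0130) and miR-3591 by 1.63 (SE 0.49, adjusted p = 0.0396). The call of miR-3591 was lost in 9 of 29 cases with a rat left out. miR-122-3p had 1.5 (SE 0.50, adjusted p = 0.0766), miR-802-3p 0.86 (SE 0.36, adjusted p = 0.170) and miR-802-5p 0.51 (SE 0.26, adjusted p = 0.278). Leaving out Monash TBIN 2 gave 0.22 for miR-802-3p (adjusted p = 0.723).

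Against Monash, 2 of 5 members were higher at UEF, against 4.39% of all miRNAs: miR-3591 by 1.60 (SE 0.48, edgeR adjusted p = 0.0389) and miR-122-3p by 1.47 (SE 0.48, adjusted p = 0.0472). miR-122-5p had 1.44 (SE 0.50, adjusted p = 0.0607), miR-802-5p 0.75 (SE 0.25, adjusted p = 0.0534) and miR-802-3p 0.13 (SE 0.34, adjusted p = 0.854). The calls were lost in 8 of 29 (miR-3591) and 21 of 29 (miR-122-3p) cases with a rat left out. Without UEF sham 3 miR-3591 had 1.21 (adjusted p = 0.0579), miR-122-3p had 1.10 (adjusted p = 0.0806) and 0 members passed.

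The estimates put UEF above Monash above UCLA for all 5 members, but miR-802-3p had -0.04 between UEF and Monash without UEF sham 3, and -0.04 with library totals alone. For miR-802-5p the step from UEF to UCLA was the one that passed. With sham rats alone the difference of miR-122-5p between UEF and UCLA was 5.35 (edgeR adjusted p = 2.0e-04) and between UEF and Monash 2.61 (adjusted p = 0.0162). With TBI rats alone these were 2.61 (adjusted p = 0.00362) and 0.64 (adjusted p = 0.608). The fits of sham rats alone include UEF sham 3 and were not run without it.

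Ratios within a rat do not depend on how the library is scaled. miR-3591 was 1.88% ± 0.281 (SD, n = 29) of the miR-122-5p count in the same rat, and ranged only from 1.49% to 2.52% while miR-122-5p itself ranged 196-fold. The share was 1.84% ± 0.178 in the 12 UEF rats and 1.62% ± 0.173 in the 8 Monash rats. UCLA rats had the largest share, 2.17% ± 0.208 (9 rats).

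These small differences between sites were larger than the spread between rats. On the log2 scale the ratio of miR-122-5p to miR-3591 was higher by 0.24 at UEF than at UCLA (two-sided exact permutation p = 8.3e-04, adjusted p = 0.00729 over 35 tests) and by 0.42 at Monash than at UCLA (exact p = 1.2e-04, adjusted p = 0.00250). Between UEF and Monash it differed by -0.18 (exact p = 0.0145, adjusted p = 0.0724). The spread of the log2 ratio between rats was an SD of 0.14 at each site. Counting alone would give 0.02 to 0.05 if each count were a separate molecule, which is not known.

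The share of miR-3591 was also set beside the level of miR-122-5p, with no test of a trend. UCLA TBIN 2 with 5961 CPM of miR-122-5p had a share of 2.43% and UCLA TBIE 2 with 11077 CPM had 2.52%, while UEF sham 3 with 1652549 CPM had 1.53%. UEF sham 1 with 271788 CPM had 1.99%, close to the 2.03% of UCLA sham 2 with 12319 CPM. The Monash sham rats had shares of 1.49% to 1.67% at 75989 to 128428 CPM.

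**Figure D3:**
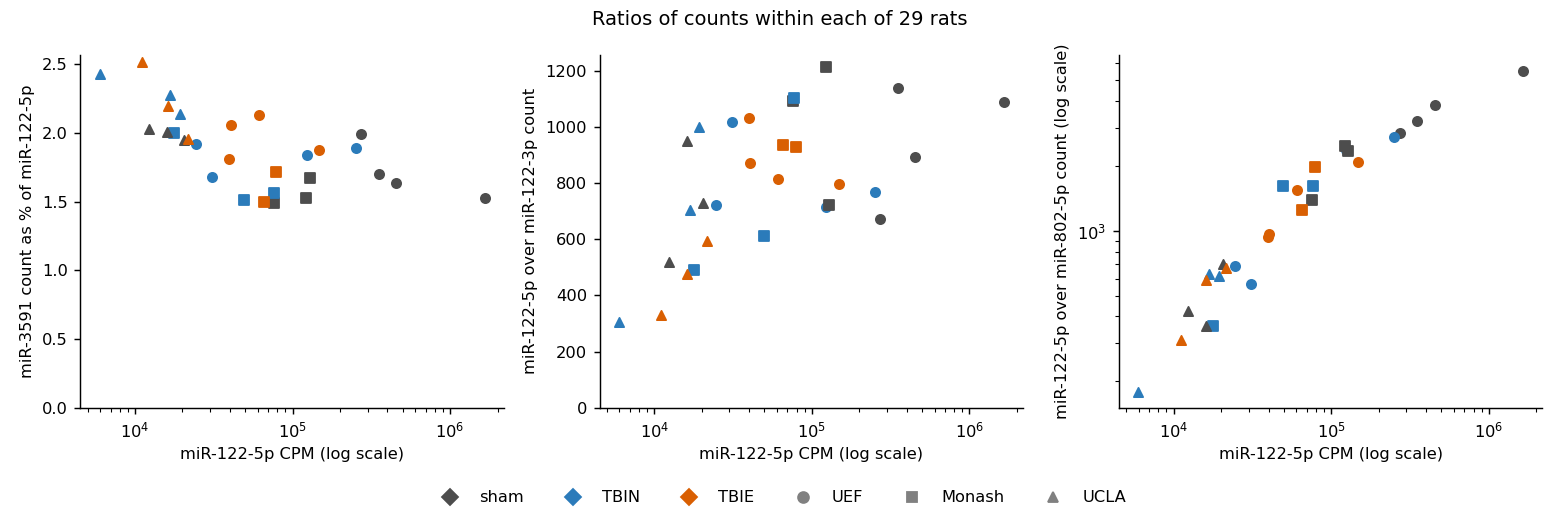
Within-rat ratios of counts against the miR-122-5p level (CPM, log scale), each point 1 rat with colour for condition and shape for site. The share of miR-3591 stays between 1.49% and 2.52%, the ratio of the miR-122 arms between 305 and 1213, and the ratio of miR-122-5p to miR-802-5p between 179 and 5543.

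The arms of miR-122 were far from equal. The median rat had 799 counts of miR-122-5p for each count of miR-122-3p. The mean was 878 ± 157 (SD, n = 12) in UEF rats, 887 ± 256 (n = 8) in Monash rats and 624 ± 247 (n = 9) in UCLA rats. On the log2 scale the ratio was higher at UEF than at UCLA by 0.59 (two-sided exact permutation p = 0.00498, adjusted p = 0.0348) and higher at Monash than at UCLA by 0.56 (exact p = 0.0510, adjusted p = 0.178).

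The arm ratio at UCLA rests on counts of miR-122-3p between 39 and 104. Its log2 ratio had an SD of 0.61 there, where counting alone would give 0.19 on the same condition. Without UEF sham 3 the difference between UEF and UCLA was 0.56 (exact permutation, adjusted p = 0.0548), and without UCLA TBIN 2 it was 0.47 (adjusted p = 0.0724). The call was lost in 10 of 29 cases with a rat left out.

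No difference of the arm ratio between TBI and sham rats passed the test. The log2 difference between TBI and sham was -0.30 over all rats (two-sided permutation p = 0.126, 100000 resamples, adjusted p = 0.276), -0.16 at UEF (exact p = 0.323), -0.34 at Monash (exact p = 0.357, where the smallest p possible is 0.0179) and -0.44 at UCLA (exact p = 0.333, smallest possible 0.0119). For miR-122-5p over miR-3591 it was -0.15 over all rats (permutation p = 0.0789, adjusted p = 0.197). At UEF the ratio of miR-122-3p to miR-3591 differed by 0.00 (exact p = 0.990), while both were lower in TBI rats there.

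The arms of miR-802 were closer to each other. There were 1.62 ± 0.613 (SD, n = 29) counts of miR-802-5p for each of miR-802-3p, and 0 of the 7 comparisons of this ratio passed. UEF sham rats lay between 1.87 and 2.29 and UEF TBI rats between 0.925 and 2.57, a log2 difference of -0.56 (two-sided exact permutation p = 0.0505, adjusted p = 0.178). Monash TBIN 2 had the lowest ratio, 0.340.

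miR-122-5p and miR-802-5p come from separate loci, and their ratio was not stable. It ranged from 179 in UCLA TBIN 2 to 5543 in UEF sham 3. At UEF, sham rats had between 2842 and 5543 counts of miR-122-5p for each of miR-802-5p and TBI rats between 567 and 2734. The log2 difference was -1.55, a 2.92-fold lower ratio in TBI rats (two-sided exact permutation p = 0.00808, adjusted p = 0.0471). Without UEF sham 3 it was -1.36 (exact permutation, adjusted p = 0.121), and the call was lost in 13 of 29 cases with a rat left out. These cases include rats of other sites, which act only through the adjustment. Without UCLA TBIN 2 the difference stayed at -1.55 (exact permutation, adjusted p = 0.0566).

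The same ratio was compared between sites, whose rats partly overlapped. Its mean was higher at UEF than at UCLA by 2.00 on the log2 scale (two-sided exact permutation p = 1.4e-04, adjusted p = 0.00250) and higher at Monash than at UCLA by 1.65 (exact p = 7.8e-04, adjusted p = 0.00729). Between UEF and Monash it differed by 0.35 (exact p = 0.445). These are differences of unadjusted means, so they need not equal the gap between the edgeR log2 fold changes of miR-122-5p and miR-802-5p.

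The members were also followed from rat to rat, over 10 pairs of members with log2 CPM in 29 rats. Values of a pair come from the same library and share its depth and scaling. miR-122-5p and miR-3591 had Pearson r = 0.996 and Spearman rho = 0.995 (permutation p = 1.0e-05 for each, the smallest that 100000 resamples can give, adjusted p = 1.7e-05). Without the 2 rats farthest from the median r was 0.993. Within sites r was 0.998 for UEF, 0.990 for Monash and 0.980 for UCLA.

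miR-122-5p and miR-122-3p had r = 0.967 and rho = 0.95 (permutation p = 1.0e-05 for each, adjusted p = 1.7e-05), and r = 0.949 without the 2 farthest rats. Within sites r was 0.991 for UEF, 0.871 for Monash and 0.280 for UCLA, where the level of miR-122-5p covered the narrowest range and miR-122-3p had the fewest counts. miR-122-3p and miR-3591 had r = 0.976 and rho = 0.947 (permutation p = 1.0e-05 for each, adjusted p = 1.7e-05; r = 0.961 without the 2 farthest rats), with 0.995, 0.889 and 0.333 within UEF, Monash and UCLA.

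miR-122-5p and miR-802-5p had r = 0.891 and rho = 0.824 over all rats (permutation p = 1.0e-05 for each, adjusted p = 1.7e-05), and r = 0.831 without the 2 farthest rats. Within UEF r was 0.952, while it was 0.225 at Monash and -0.182 at UCLA. CPM of miR-122-5p spanned 67.3-fold at UEF, 7.22-fold at Monash and 3.63-fold at UCLA, and a difference in r between sites was not tested. After site and condition were taken out of both measures r was 0.746.

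miR-802-3p followed the others loosely over all rats, and how loosely depended on single rats. Its r with miR-122-5p was 0.531 and rho 0.544 (permutation p = 0.00292 and 0.00275, adjusted p = 0.00292 and 0.00343), and without the 2 farthest rats r was 0.308. Without Monash TBIN 2 alone, r of miR-802-3p was 0.736 with miR-122-5p, 0.716 with miR-122-3p and 0.749 with miR-3591. Its r with miR-802-5p, the other arm of the same hairpin, was 0.656 and rho 0.581 (permutation p = 3.2e-04 and 0.00119, adjusted p = 4.6e-04 and 0.00170), falling to 0.452 without the 2 farthest rats. Within sites this was 0.862 for UEF, 0.342 for Monash and -0.856 for UCLA, so the direction at UCLA was opposite, with counts of 35 to 103 for these arms. The remaining 4 pairs had r between 0.541 and 0.898 over all rats. Within sites these pairs had r between 0.708 and 0.936 for UEF, between -0.404 and 0.264 for Monash and between -0.411 and 0.079 for UCLA.

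**Figure D4:**
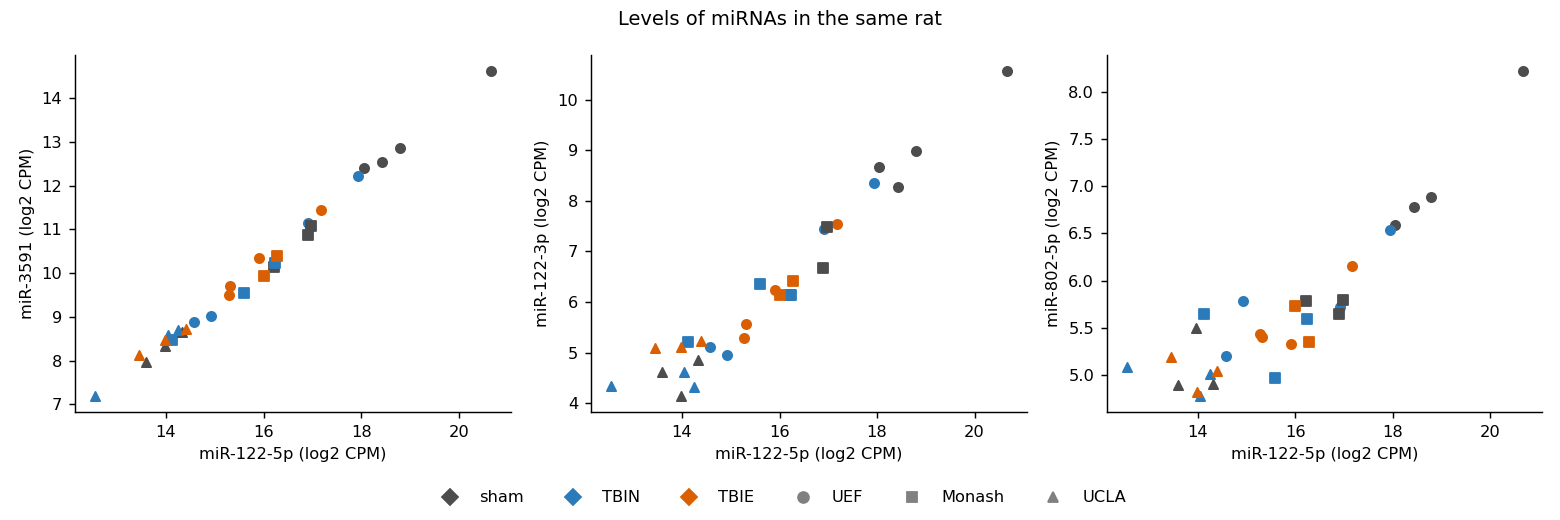
Log2 CPM of miR-3591, miR-122-3p and miR-802-5p against log2 CPM of miR-122-5p in the same rat, with colour for condition and shape for site. The first 2 follow miR-122-5p over the whole range (r = 0.996 and 0.967), while r of miR-802-5p is 0.952 among UEF rats, 0.225 among Monash rats and -0.182 among UCLA rats, whose difference was not tested.

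To see which other plasma miRNAs ran in a like order, Spearman's rho with each of the 746 miRNAs tested that are not members was ranked over the 29 rats. For miR-122-5p the median rho was -0.009 and 4 miRNAs were above 0.8. The 5 highest were miR-143-5p (0.837), miR-145-3p (0.836), miR-676 (0.824), miR-192-3p (0.816) and miR-378b (0.793). miR-143 and miR-145 are known from smooth muscle, and miR-192 from liver and gut.

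Within UEF, Monash and UCLA in turn, miR-143-5p had 0.580, 0.619 and 0.483, and miR-145-3p had 0.664, 0.667 and 0.5. miR-192-3p had 0.902 at UEF, 0.738 at Monash and 0.167 at UCLA. miR-143-5p was higher at UEF than at UCLA by 2.14 (edgeR adjusted p = 9.1e-05) and had -1.08 in TBI rats at UEF (adjusted p = 0.207).

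The 5 miRNAs nearest to miR-802-5p were miR-192-3p (0.709), miR-203b-3p (0.689), miR-194-3p (0.657), miR-192-5p (0.652) and miR-194-5p (0.646). Of these, 4 belong to the miR-192 and miR-194 group of liver and gut. Over these 5 the values were 0.608 to 0.853 within UEF, 0.452 to 0.690 within Monash and -0.300 to 0.517 within UCLA, where miR-194-3p had the 0.517.

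Further miRNAs were described as lists, the first from liver and gut. At UEF 2.53% of all miRNAs were called lower in TBI than in sham rats (19 of 751), and 10 of 751 higher. Of 5 liver and gut miRNAs (arms of miR-192, miR-194 and miR-215), 4 were lower, with a median log2 fold change of -1.57 against 0.01 for all miRNAs. miR-194-5p had -2.79 (SE 0.42, edgeR adjusted p = 1.9e-04), miR-192-5p -2.05 (SE 0.40, adjusted p = 0.00110), miR-192-3p -1.57 (SE 0.33, adjusted p = 0.00233) and miR-194-3p -1.18 (SE 0.30, adjusted p = 0.0184). With UEF sham 3 left out the count was 1 of 5 (median -0.96 against 0.04). With library totals alone it was 2 of 5 (median -0.89 against 0.43), where 48 of 751 miRNAs were called in either direction. With the hemolysis ratio as a covariate it was 2 of 5, where 21 of 751 were called.

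Over all sites 1 of these 5 was lower in TBI rats (miR-194-5p, -1.52, SE 0.38, edgeR adjusted p = 0.0367), against 0.533% of all miRNAs. The median was -0.87 against 0.03, and without UEF sham 3 the count was 0. Between UEF and UCLA 4 of 5 were higher at UEF, against 5.19% of all miRNAs, with a median of 1.38 against 0.07. Between Monash and UCLA 0 of 5 passed, where 41 of 751 miRNAs were called, with a median of 0.18.

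A second list was set as other liver-enriched miRNAs, though these are not limited to liver. It held 10 arms (miR-148a, miR-193a, miR-365, miR-455 and miR-22), with a median of -0.61 at UEF. Of these, 2 were lower in TBI rats, against 2.53% of all miRNAs. These were miR-148a-3p at -1.47 (SE 0.39, edgeR adjusted p = 0.0251) and miR-22-3p at -1.29 (SE 0.31, adjusted p = 0.0119). Leaving out UEF sham 3 gave 0 of 10, with a median of -0.27. Between UEF and UCLA 2 of the 10 were higher at UEF and 2 lower, with a median of 0.17. Of all 751 miRNAs, 39 were higher and 31 lower. Between Monash and UCLA 0 of the 10 were higher at Monash and 2 lower (median -0.21), where 23 of 751 were higher and 18 lower. Between UEF and Monash 3 of the 10 were higher at UEF and 0 lower (median 0.19), where 33 of 751 were higher and 42 lower.

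Markers of other sources of plasma miRNA were counted beside these. Of 7 red cell miRNAs 1 was higher in TBI rats at UEF, miR-486 (1.34, SE 0.31, edgeR adjusted p = 0.00774), against 10 of 751 of all miRNAs. The summed CPM of the list was between 128868 and 204892 in UEF sham rats and between 167823 and 633491 in UEF TBI rats. With library totals alone 5 of the 7 passed, where 48 of 751 miRNAs were called and the median of all was 0.43. Of 9 neuron miRNAs 3 were higher in TBI rats at UEF, against 10 of 751, with a median of 0.87. These were miR-128-3p (1.23, SE 0.35, adjusted p = 0.0436), miR-129-5p (1.52, SE 0.30, adjusted p = 9.9e-04) and miR-9a-5p (0.98, SE 0.28, adjusted p = 0.0458). Leaving out UEF sham 3 gave 1 of 9. Of 13 muscle, 6 white cell and platelet and 8 pancreas miRNAs, 0 were called between TBI and sham rats at UEF, against 29 of 751 of all miRNAs. Site differences were not limited to the liver lists. Of the 13 muscle miRNAs, 4 were higher at UEF than at UCLA and 0 lower (median 0.62), against 5.19% of all miRNAs called higher. At Monash 3 of them were higher than at UCLA and 0 lower, against 3.06%. Of the 6 white cell and platelet miRNAs, 3 were lower at UEF than at Monash and 0 higher, where 42 of 751 were lower. The part of these sources in the values of the 5 members was not tested. The fit with the hemolysis ratio used a common slope for all sites. The ratio itself lay higher in TBI rats at UEF and UCLA, so that fit cannot separate it from TBI.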

How the data were processed

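Blood plasma of 29 rats gave 1 small RNA library each (QIAseq miRNA kit, single-end Illumina reads). The authors trimmed reads with cutadapt, aligned them with Bowtie to Rnor 6.0, annotated them with miRBase and deposited raw counts per mature miRNA. Whether reads with the same molecular identifier were merged, and whether strand was used, is not given in the sources used here. The counting errors and exact intervals given above take each count as a separate molecule, and would be too small if copies were not merged.

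Rats were grouped by the labels. Members and lists were chosen with earlier results of these data known. Counts were filtered with filterByExpr (minimum count 10), which kept 751 of 754 miRNAs, scaled by TMM, and fitted in edgeR 4.0.16 (R 4.3.3) by the quasi-likelihood F test, with site and condition, or site, TBI and their interaction. The TBI contrast was the mean of TBIN and TBIE less sham. p-values were adjusted by Benjamini-Hochberg over the 751 miRNAs, and an adjusted p below 0.05 counted as a call. Log2 CPM used a prior count of 2. Ratios (0.5 added to each count) were tested by two-sided permutation, exact where a group had under 10 rats and otherwise with 100000 resamples, adjusted over 35 tests. Correlations were adjusted over 10 pairs. The plan had named 4 members; miR-802-3p met the naming rule, and its ratio and pairs were added after the data were seen.

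Named beyond the members were the 5 miRNAs nearest in rank to miR-122-5p and to miR-802-5p, up to 4 members of a list, and the 3 miRNAs with the largest mean share; miR-22-3p, miR-486 and the neuron miRNAs that passed were named after their values were seen. Scripts were tested on simulated data. DESeq2 1.42.0, other scalings and filters, and each rat left out in turn were alternatives. No pair of libraries was identical.

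Replicate numbers did not pair rats: deviations of rats with the same number correlated at -0.026 on average.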

Additional observations from a re-analysis of the deposited data

Results flagged for a closer look

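Among 110 groups of values tested for a rat far from the others, 7 marks arose, where chance at 1 in 20 gives 5.5. Of these, 5 came from the rat Monash TBIN 2. It had the lowest log2 CPM of miR-122-3p among Monash TBI rats (5.21, the nearest rat 6.14) and the highest of miR-802-3p among TBIN rats (7.19, the nearest 5.51), from 470 counts. Its log2 ratio of miR-122-5p to miR-802-5p was the lowest among Monash rats and among Monash TBI rats (8.49, the nearest 10.28 in both). Its log2 ratio of miR-802-5p to miR-802-3p was the lowest among TBIN rats (-1.55, the nearest 0.09). UCLA TBIN 2 had the lowest log2 CPM of miR-3591 among UCLA rats (7.19, the nearest 7.97). UEF TBIE 1 had the highest log2 CPM of miR-802-5p among UEF TBIE rats (6.16, the nearest 5.44).

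Without Monash TBIN 2, the log2 fold change of miR-802-3p between UEF and Monash was 0.74 (edgeR adjusted p = 0.0741) in place of 0.13, that between Monash and UCLA was 0.22 (adjusted p = 0.723) in place of 0.86, and the Pearson correlation of miR-802-5p with miR-802-3p over rats was 0.770 in place of 0.656. The cause was not tested.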

How the results depend on the processing

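At UEF, 4 members stayed past the threshold after TBI with each rat left out and under each alternative fit except library totals alone, where miR-802-5p had -0.83 (edgeR adjusted p = 0.0817); DESeq2 was not run within sites. For TBI against sham over all sites, miR-122-5p had -1.33 with the hemolysis ratio as a covariate, -1.60 with the replicate block and -0.52 without UEF, and -1.81 to -1.11 with a rat left out. miR-802-5p had -0.84 with DESeq2 size factors, -0.57 with library totals alone, -0.59 with miR-28-3p normalization, -0.75 with a filter by condition (chosen after seeing the data), -0.61 with the hemolysis ratio, -0.78 with the replicate block (adjusted p = 0.0906; 0.0609 for miR-122-5p) and -0.22 without UEF, and -0.88 to -0.51 with a rat left out. miR-802-3p had 0.15 without UEF. The number of the 5 members called was 1 with DESeq2 size factors (7 of 751 of all miRNAs called) and with the filter by condition (8 of 744). It was 0 with the hemolysis ratio (4 of 751), with the replicate block (5 of 751) and without UEF (0 of 745). It was 4 with a minimum count of 100 (14 of 468), without covariates (15 of 751), without UCLA (14 of 751) and with DESeq2 (22 of 751). It was 0 to 4 with a rat left out.

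Between UEF and Monash, miR-122-5p had 1.90 without covariates, 2.61 in sham rats alone and 1.44 with DESeq2, where it passed, and 1.00 to 1.57 with a rat left out. miR-802-3p had -0.04 with library totals alone, -0.36 in TBI rats alone and -0.04 to 0.74 with a rat left out. Of 5 members, 1 was called with DESeq2 size factors (68 of 751 of all miRNAs called), upper-quartile normalization (46 of 751), library totals alone (33 of 751) and totals without miR-122-5p (66 of 751). The same held with miR-28-3p normalization (18 of 751), thinned counts (29 of 741) and the filter by condition (57 of 744). None was called with the replicate block (31 of 751), without UCLA (67 of 751) and in TBI rats alone (0 of 750). In sham rats alone (35 of 741) and with DESeq2 (109 of 751) 4 were called. The range was 0 to 4 with a rat left out. Between UEF and UCLA all 5 members were called with upper-quartile normalization (75 of 751 of all miRNAs called), a minimum count of 100 (88 of 468) and the filter by condition (73 of 744). All 5 were also called with no covariates (72 of 751), without Monash (70 of 748), in sham rats alone (36 of 741) and with DESeq2 (81 of 751). Between Monash and UCLA, miR-122-5p had 1.97 in TBI rats alone (edgeR adjusted p = 0.0503). The count was 1 with the hemolysis ratio (31 of 751 of all miRNAs called) and 0 in TBI rats alone (23 of 750). It was 3 with library totals alone (43 of 751), miR-28-3p normalization (38 of 751) and a minimum count of 100 (42 of 468). It was also 3 without UEF (45 of 745), in sham rats alone (21 of 741) and with DESeq2 (59 of 751), and 1 to 3 with a rat left out.

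Between TBIE and TBIN, where no alternative gave a call, miR-122-5p had -0.20 without covariates, -0.13 without Monash, -0.01 without UCLA and 0.00 in TBI rats alone. miR-122-3p had -0.28 and -0.24 without covariates and without UCLA, miR-3591 -0.17 and -0.13 without covariates and without Monash, and miR-802-5p 0.05 with miR-28-3p normalization, 0.15 in thinned counts and 0.11 without UEF. With a rat left out the ranges were -0.06 to 0.27 for miR-122-5p, -0.07 to 0.28 for miR-3591, -0.15 to 0.02 for miR-802-5p and -0.46 to 0.12 for miR-802-3p. The adjusted p of the interaction of miR-122-5p was 0.0439 to 0.481 with a rat left out.

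With medians in place of means, the log2 ratio of miR-122-5p to miR-802-5p had -1.53 for TBI at UEF (exact permutation, adjusted p = 0.213) and 1.93 between UEF and UCLA (adjusted p = 0.0768), that of the miR-122 arms -0.14 between UEF and Monash, that of miR-122-3p to miR-3591 -0.04 for TBI at UEF (0.00 with nothing added to counts) and that of the miR-802 arms 0.00 between UEF and Monash. With a rat left out the ranges were -1.70 to -1.36 for miR-122-5p to miR-802-5p in TBI at UEF, 0.47 to 0.69 and -0.09 to 0.10 for the miR-122 arms between UEF and UCLA and between UEF and Monash, -0.09 to 0.08 for miR-122-3p to miR-3591 in TBI at UEF, and -0.06 to 0.34 and -0.10 to 0.31 for the miR-802 arms between UEF and Monash and between Monash and UCLA.

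Within Monash alone r was 0.225 for miR-122-5p and miR-802-5p, and with miR-802-3p it was -0.518 for miR-122-5p and -0.404 for both miR-122-3p and miR-3591. Spearman's rho with miR-802-3p there was 0.238 for miR-122-5p and for miR-3591, and 0.024 for miR-122-3p. Within UCLA alone r with miR-802-5p was -0.182 for miR-122-5p, -0.411 for miR-122-3p, -0.214 for miR-3591 and -0.856 for miR-802-3p. Where fewer rats or other rats entered a fit the spread was estimated anew, and for the other alternatives the cause was not tested. Low counts limit miR-122-3p and both arms of miR-802, with as few as 39, 61 and 30 counts.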
